A study of Mus musculus with 12 samples.

Results

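The comparison is between mouse pancreatic tumour cells labelled as an Egfr knockout (EgfrKO) and cells labelled wild type (WT), across all genes. The members are the 13662 genes, of 24493 in the table, with a value of at least 1 TPM in at least 3 of the 12 libraries of the series. TPM gives how much of the library's transcripts belongs to a gene, corrected for length and scaled to the same total in every library. There were 3 EgfrKO and 3 WT libraries, and the 2 other groups of 3 libraries, labelled Klf5KO and Smad4KO, entered the fit that estimates the spread. All cells are named 6649c2, were sorted from tumours grown under the skin, and carry the strain label C57BL/6. Nothing in the labels gives the sorting markers, the origin of replicates or the number of clones behind a knockout. The p-values therefore reflect variation among these libraries, possibly technical, and a clone's own traits cannot be told apart from those of the knockout.

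EGFR is a receptor tyrosine kinase of the ERBB family, which epithelial cells use to sense growth factors such as amphiregulin and HB-EGF. Ligand binding joins receptors in pairs, and the active kinase recruits adaptors that switch on the RAS to ERK cascade and the PI3K to AKT pathway. ERK in turn induces immediate-early transcription factors of the AP-1 family and a set of phosphatases and other inhibitors that damp the signal. In pancreatic ductal tumours the receptor and its ligands are known for their part in early tumour formation, and many ligand genes are themselves induced by the pathway.

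The main shifts were these, against a background of 31.3% of all genes called higher and 12% called lower in EgfrKO at an adjusted p of 0.05. On the lower side were Egfr itself, 12 of 22 output and feedback genes of ERK, 18 of 23 AP-1 and immediate-early genes, 22 of 31 hypoxia-induced genes and 14 of 21 glycolysis genes. On the higher side were all 18 genes of MHC class I and peptide loading, all 19 interferon-inducible GTPase genes, 29 of 38 replication genes and 14 of 20 genes of the pentose phosphate, serine and one-carbon pathways. Many further genes moved by small amounts, and whether they were called depended on how the libraries were scaled. Egfr (chromosome 11, 16752203 to 16913907 in GRCm38.p6) was at 12.3, 13.96 and 13.1 TPM in WT and 5.16, 3.77 and 3.94 in EgfrKO. The EgfrKO libraries were all lower than the WT libraries, at 0.327 times the WT mean. The log2 fold change, always on the scale of log2(TPM + 1) and given with its standard error (SE), was -1.42 ± 0.17 (limma adjusted p = 5.9e-05), and an exact permutation test of the 3 libraries against 3, two-sided, gave p = 0.1, the smallest it can give.

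Across genes, Pearson correlations of log2(TPM + 1) were 0.986 to 0.987 within the WT and EgfrKO groups and 0.957 to 0.965 between them. Over all genes, 4277 were called higher and 1643 lower in EgfrKO, and the 3 libraries of each group did not overlap for 56% of genes. The median log2 fold change was 0.14, and mean TPM was higher in EgfrKO for 9218 genes and lower for 4439. Because TPM has a fixed total, a gene's value also depends on how much of that total the other transcripts take. In WT, the 20 most abundant genes took 20.3% to 20.7% of the total, and in EgfrKO 16.3% to 20.7%. Genes of cytosolic ribosomal proteins took 19.5% to 19.9% in WT and 18.6% to 19.3% in EgfrKO, and the microRNA model Mir6236 took 6.63% to 7.21% and 3.87% to 8.62%. Libraries were therefore also scaled by the median ratio of each gene to its geometric mean over libraries (median-of-ratios scaling), with factors of 0.891 to 0.922 in WT and 0.956 to 1.05 in EgfrKO. After this scaling the median was 0.0033, 2462 genes (18%) were called higher and 3029 (22.2%) lower, and groups did not overlap for 53.6%. All 2462 higher calls and 1642 of the lower calls were made both ways. Of the other calls as deposited, 1815 higher and 1 lower were lost, 1387 genes not called before were lower after scaling, and no call changed sign. Quantile normalization gave 2510 higher (18.4%) and 2766 lower (20.2%).

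**Figure D1:**
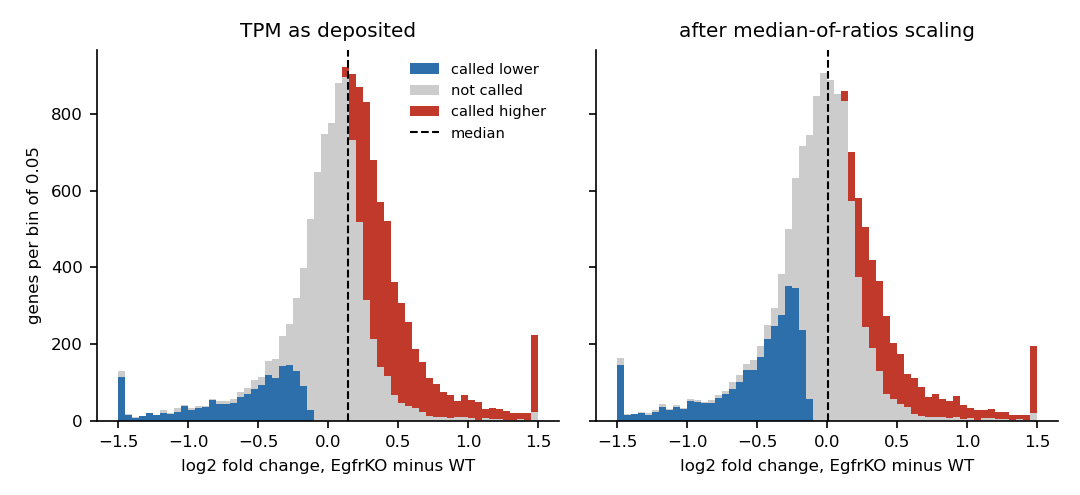
Number of genes by log2 fold change of EgfrKO minus WT, in bins of 0.05, for TPM as deposited (left) and after median-of-ratios scaling (right); the outermost bins hold all genes beyond them, and colours mark calls at adjusted p of 0.05. The median moves from 0.14 to 0.0033, with 1815 higher calls lost, 1387 further genes called lower and no call changing sign.

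Calls with large changes also depended on the scaling. With a log2 change of at least 1, 448 genes were higher and 280 lower as deposited, and 347 and 366 after scaling. With a change of at least 2 the counts were 88 and 32, and 76 and 46. Called genes with a change under 1 were most of all calls, and the larger direction turned also among changes of at least 1, but not of at least 2. Below, a gene said to have risen or fallen was called in that direction as deposited and after each of 4 ways of scaling (median-of-ratios, quantile, and TPM rescaled without the 20 most abundant genes or without ribosomal protein genes and small RNA models, for genes that each keeps), unless the sentence says otherwise, and adjusted p-values are limma's on values as deposited unless said to be after a scaling. In called genes whose 6 values are given, all 3 EgfrKO libraries lay above, or all below, all 3 WT libraries. In counts of list members, after scaling means after median-of-ratios scaling, and the background shares above apply: 31.3% higher and 12% lower as deposited, 18% and 22.2% after scaling.

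Among ERBB receptor and ligand genes, 6 of 11 tested were lower and 3 higher, and after scaling 7 and 2. Areg, which encodes amphiregulin, was at 71.9, 82.2 and 86.6 TPM in WT and 26.1, 28.97 and 26.1 in EgfrKO, 0.337 times WT. Ereg, for epiregulin, was at 12.4, 18.03 and 20.8 TPM in WT and 5.95, 5.87 and 4.61 in EgfrKO. Hbegf, for heparin-binding EGF-like growth factor and the most abundant ligand gene, was at 288, 254 and 277 TPM in WT and 139, 138 and 133 in EgfrKO. In each of these 3 genes every EgfrKO library lay below every WT library, with adjusted p of 9.1e-05, 1.7e-04 and 1.1e-06. Btc, for betacellulin, fell less, to 0.638 times WT (74.9, 73.8 and 81.6 TPM in WT and 49.9, 49.6 and 47.5 in EgfrKO). The receptor gene Erbb2, whose product has no known ligand and pairs with the other receptors, moved the other way, from 33.9, 33.3 and 31.6 to 45.5, 46.3 and 43.3 TPM (log2 fold change 0.44 ± 0.074, 0.29 after scaling, adjusted p = 6.8e-04). Erbb3, for a receptor that signals through its partners, fell from 12.8, 15.4 and 11.2 to 9.37, 9.45 and 8.71 TPM (adjusted p = 0.0162), a call made in 16 of 18 alternative analyses. Erbb3 and 2 neuregulin genes, for ligands of ERBB3 and ERBB4, were named with their values known: Nrg2 rose to 1.18, 0.750 and 0.811 TPM from 0.138, 0.288 and 0.0521, and Nrg4 was called higher as deposited (adjusted p = 0.0341) and not after median-of-ratios scaling (0.0974). Nrg2 was below 1 TPM in every WT library and passed the filter only through EgfrKO replicate 1 and Klf5KO-labelled replicates 1 and 3. Tgfa, for transforming growth factor alpha, named after its values were seen, was at 26.9, 28.6 and 28.9 TPM in WT and 27.9, 26.9 and 24.4 in EgfrKO. Its groups overlapped and it was not called (adjusted p = 0.326), but it was called lower after median-of-ratios scaling (adjusted p = 0.00374).

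**Figure D2:**
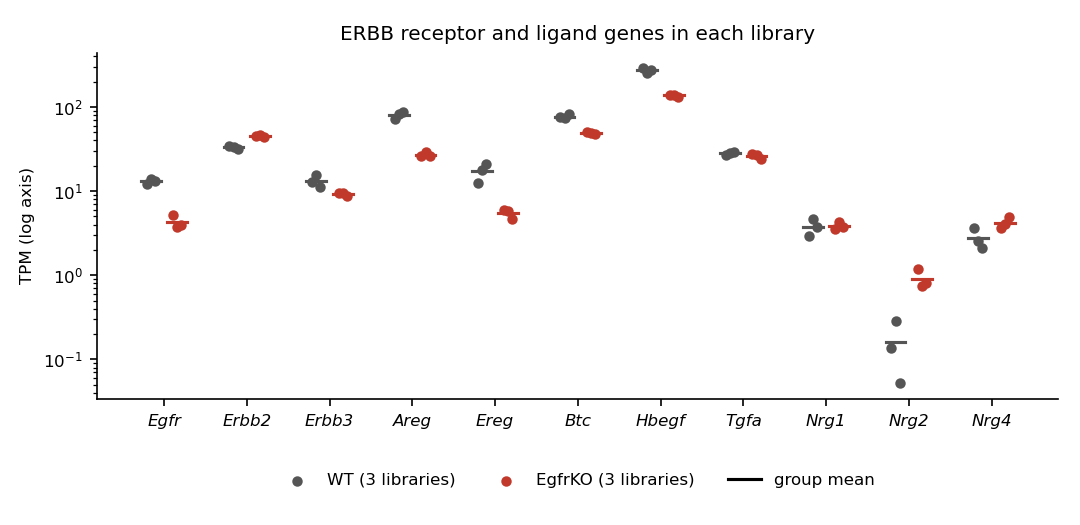
TPM of the 11 ERBB receptor and ligand genes tested, in each WT (grey) and EgfrKO (red) library, on a log axis, with lines at group means. The EgfrKO points of Egfr, Areg, Ereg, Btc and Hbegf lie below all WT points, those of Erbb2 lie above, and those of Tgfa and Nrg1 overlap with WT.

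Adaptor and trafficking genes around the receptor were mostly near no change as deposited, with 3 of 29 higher and 4 lower, and their direction rested on the scaling, which gave 0 higher and 12 lower. Errfi1, which encodes the inhibitor MIG6, an ERBB feedback protein, fell from 127, 131 and 130.0 to 96.6, 95.7 and 90.1 TPM. Lrig1, for a membrane protein that promotes loss of ERBB receptors, fell from 25.2, 26.3 and 25.3 to 19.5, 18.6 and 17.7 TPM. Shc1, for an adaptor that links the receptor to RAS, was called higher as deposited (0.20) and not after scaling (0.05, adjusted p = 0.457), and the same was true of Adam10, for the protease that sheds several ligands (0.24, then 0.094, adjusted p = 0.326).

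Genes of the RAS to ERK cascade itself changed in both directions, 5 higher and 3 lower of 21, and 3 and 7 after scaling. The ERK genes' upstream kinases split: Map2k1 fell (0.819 times WT) and Map2k2 rose (1.38 times). Mapk3, for ERK1, fell from 282, 282 and 294 to 216, 220.2 and 214 TPM (log2 fold change -0.40 ± 0.043), and Rasa1, for a RAS GTPase-activating protein, fell to 0.658 times WT. Rps6ka1, for the ERK-activated kinase RSK1, rose from 26.6, 26.3 and 21.95 to 39.2, 41.2 and 36.4 TPM. The outputs of ERK moved together more than its components. Of 22 feedback and output genes 12 were lower and 1 higher, with a median of -0.26 against 0.14 over all genes, and after scaling 16 and 1. Ier3, an abundant immediate-early response gene, was at 731, 861 and 963 TPM in WT and 355, 364 and 334 in EgfrKO, the widest loss in TPM of the list's named members. Dusp4 and Dusp5, for nuclear phosphatases that switch off MAP kinases, had log2 fold changes of -1.43 ± 0.11 and -1.46 ± 0.085 (adjusted p = 3.3e-06 and 5.6e-07). Plaur, the urokinase receptor gene, fell to 0.726 times WT. The 1 exception upward was Ccnd1, for cyclin D1, a growth factor output as well as a cell cycle gene, at 167, 164 and 163 TPM in WT and 238, 218 and 211 in EgfrKO (adjusted p = 0.00241).

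AP-1 and immediate-early genes were the list of this group with the lowest median, -0.60 (-0.75 after scaling): 18 of 23 were lower and 0 higher, and 21 and 0 after scaling. Their mean log2(TPM + 1) was 6.27, 6.52 and 6.57 in the WT libraries and 5.85, 5.84 and 5.76 in EgfrKO, so WT varied more between libraries than EgfrKO did. Egr3, an early growth response factor, was at 7.41, 11.97 and 10.9 TPM in WT and 2.89, 2.57 and 2.67 in EgfrKO. Maff, a small MAF partner of AP-1, was at 131, 144 and 162 TPM in WT and 62.1, 61.8 and 58.4 in EgfrKO. Junb, the most abundant member, fell from 927, 964 and 1029 to 723, 737 and 718 TPM, and Fosb was at 0.468 times WT (adjusted p = 0.0246, but 0.0518 to 0.094 when EgfrKO replicate 1, 2 or 3 or WT replicate 2 or 3 was left out). Fos did not pass the test as deposited (adjusted p = 0.0664) and passed after scaling (0.0434), with TPM of 465, 559 and 644 in WT and 333, 353 and 316 in EgfrKO, which did not overlap.

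The remaining growth factor genes showed no common direction. Of 19 other receptor tyrosine kinases 7 were higher and 3 lower (6 and 5 after scaling). Fgfr3 was at 2.34, 2.64 and 1.52 TPM in WT and 22.6, 20.8 and 16.3 in EgfrKO, 9.20 times WT, and Mst1r, the receptor for macrophage-stimulating protein, rose to 1.48 times WT. Ptk7, a pseudokinase of WNT signalling, fell to 0.542 times. Among 23 ligand and binding protein genes 4 were higher and 6 lower (4 and 6 after scaling). Igfbp3, for the main IGF carrier, was at 487, 479.7 and 612 TPM in WT and 196, 196 and 191 in EgfrKO. Igfbp5 went the other way, from 20.7, 26.9 and 19.9 to 59.8, 56.3 and 51.3 TPM, and Fgf1 rose to 3.12 times WT. The vessel factors also split, with Vegfa and Pdgfa at 0.560 and 0.444 times WT and Vegfc at 1.35 times. PI3K, AKT and mTOR genes had 3 higher and 3 lower of 27, which became 2 and 11 with scaling. Irs2 and Pik3r1, for an insulin receptor substrate and the regulatory subunit of PI3K, fell to 0.637 and 0.746 times WT, and Pik3ip1, for an inhibitor of that enzyme, rose to 1.45 times. With WT replicate 3 or EgfrKO replicate 3 left out Irs2 was not called (adjusted p = 0.0686 and 0.06), nor was Pik3r1 with WT replicate 2, EgfrKO replicate 2 or EgfrKO replicate 3 left out (adjusted p = 0.0574, 0.0515 and 0.0547). Of 15 Eph receptor and ephrin genes 4 were lower and 1 higher (6 and 1 after scaling), with Efna1, for the ligand ephrin A1, at 160.3, 179 and 171 TPM in WT and 132, 119 and 119.7 in EgfrKO.

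Interferon-response and antigen presentation genes had the highest medians of the 64 lists. Interferons signal through JAK kinases and STAT factors, and the induced genes include those that cut peptides and show them on MHC molecules. All 18 MHC class I and peptide loading genes tested, all 7 of class II and all 19 interferon-inducible GTPases were higher, with medians of 1.51, 3.01 and 2.43, and all remained so after scaling (1.36, 2.86 and 2.29). Of 35 antiviral genes 30 were higher and 2 lower, the same counts as after scaling. Reads of near-identical family members (H2, Gbp, Irg and Oas genes) can be shared between them, so single values within these families are uncertain.

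Genes of each step of peptide presentation rose. Psmb8, for a catalytic subunit of the immunoproteasome, was at 69.8, 47.6 and 25.8 TPM in WT and 368, 348 and 349.8 in EgfrKO. Its partner subunit gene Psmb9 was at 60.9, 42.0 and 24.5 TPM in WT and 295, 262 and 249 in EgfrKO. Tap2, for a chain of the peptide transporter, was at 15.8, 10.1 and 7.52 TPM in WT and 72.5, 67.2 and 64.0 in EgfrKO. H2-K1, a classical class I heavy chain gene, was at 1112, 905 and 657 TPM in WT and 3408, 3311 and 3296 in EgfrKO, and B2m, for the shared light chain, at 2082, 1752 and 1355 TPM in WT and 4160.5, 4186 and 4142 in EgfrKO. These 2 genes gained the most TPM of all genes tested. All EgfrKO libraries lay above all WT libraries in these genes, and the WT libraries differed more among themselves, with WT replicate 3 lowest. Over the class II list the mean log2(TPM + 1) was 4.91, 4.76 and 3.93 in WT and 7.53, 7.53 and 7.56 in EgfrKO. Over the GTPases it was 3.60, 3.38 and 2.82 in WT and 5.57, 5.52 and 5.39 in EgfrKO. Of 31 JAK, STAT, IRF and interferon receptor genes 17 were higher and 6 lower (15 and 8 after scaling). Nlrc5, the transactivator of class I genes, rose to 4.56 times WT, and Ciita, the transactivator of class II genes, was at 1.62, 1.46 and 0.503 TPM in WT and 9.84, 8.56 and 8.61 in EgfrKO. Socs5 and Jak3 fell to 0.815 and 0.825 times WT. In the antiviral list Oas2, Zbp1 and Sp100 rose to 4.51, 3.79 and 4.16 times WT, whereas Ifitm1, for a membrane protein that blocks virus entry, fell from 96.9, 96.1 and 113 to 51.6, 56.3 and 54.2 TPM (adjusted p = 4.6e-04). Ifitm2 was the other lower call (-0.22, adjusted p = 0.0334), lost when any library but WT replicate 3 was left out (adjusted p = 0.0524 to 0.0921), and Ifitm3, with 720.0, 572 and 519 TPM in WT and 664, 658 and 645 in EgfrKO, was not called.

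Promoter letters are shown for 3 genes that rose, since interferon-induced factors bind a short DNA element there. The stretches are RefSeq's for GRCm38.p6, 5′ to 3′ on the gene's strand, upstream of the start, and capitals mark GAAA, any 2 bases and GAAA, or the reverse complement, the core of the interferon-stimulated response element: chr3:142620574-142620643 for Gbp2, chr11:58199492-58199555 for Igtp and chr2:122147518-122147587 for B2m, all on the plus strand.
Gbp2: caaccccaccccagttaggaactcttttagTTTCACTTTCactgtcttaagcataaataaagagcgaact
Igtp: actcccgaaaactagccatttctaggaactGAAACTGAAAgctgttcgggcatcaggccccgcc
B2m: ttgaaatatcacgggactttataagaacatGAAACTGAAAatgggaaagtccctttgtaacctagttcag
The motif was searched on both strands in the 250 bases before each listed start, in 13140 windows of 10387 of the genes tested. It was in 2.85% of all windows, 81.8% of the 11 windows of GTPase genes and 32.3% of the 31 of antiviral genes. It was also in 16.7% of the 18 of class I genes and none of the 6 of class II genes. Only some genes had a window: 10 of 19 GTPase, 29 of 35 antiviral, 16 of 18 class I and 5 of 7 class II genes tested. Windows of hypoxia-induced genes, present for 22 of 31, held it in 6.25%. A match describes the letters only.

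The immune genes beyond these lists moved in both directions. Of 21 checkpoint and co-stimulatory ligand genes 9 were higher and 4 lower (8 and 6 after scaling). Cd274, for PD-L1, was at 5.28, 5.93 and 5.01 TPM in WT and 12.7, 12.2 and 11.95 in EgfrKO. Ido1, for an enzyme that breaks down tryptophan, was at 10.8, 7.39 and 6.22 TPM in WT and 53.5, 51.2 and 52.2 in EgfrKO, and Lgals9, for galectin 9, rose from 124, 128 and 99.7 to 243, 235 and 219 TPM. Pvr, for a ligand of the receptors TIGIT and DNAM-1, fell from 47.0, 48.8 and 46.7 to 35.1, 31.1 and 27.1 TPM, and Nt5e, for the ectoenzyme CD73, fell to 0.807 times WT. Chemokine genes for lymphocytes and dendritic cells had 6 higher and 0 lower of 13, with 3 lower after scaling. Cxcl9, an interferon-induced T cell attractant, was at 11.9, 9.35 and 5.41 TPM in WT and 111, 104 and 99.4 in EgfrKO, and Cxcl10, a related attractant, was at 39.1, 33.5 and 23.2 TPM in WT and 120.1, 118 and 106 in EgfrKO. Of 27 genes that attract or grow myeloid cells 12 were lower and 2 higher (14 and 1 after scaling), with a median of -0.58. Cxcl2, a neutrophil chemokine gene, was at 68.5, 127 and 111 TPM in WT and 26.9, 26.9 and 20.3 in EgfrKO. Csf2, for GM-CSF, was at 26.8, 58.9 and 47.8 TPM in WT and 6.07, 6.70 and 6.21 in EgfrKO. WT replicate 1 was the lowest WT library in both, and every EgfrKO library was lower still. Ccl8, a monocyte chemokine gene, was the largest exception, at 247, 371 and 197 TPM in WT and 854, 823 and 825 in EgfrKO (adjusted p = 0.0297); its call was lost after median-of-ratios scaling (0.0571) and when any library but WT replicate 2 was left out (adjusted p = 0.0618 to 0.0977).

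Of 27 NF-kappaB and TNF pathway genes 7 were higher and 7 lower, and 4 and 11 after scaling. Nfkbia, for the inhibitor that NF-kappaB itself induces, was at 173, 251 and 259 TPM in WT and 119, 122 and 119 in EgfrKO, and Tnfaip3, for the A20 feedback enzyme, fell to 0.470 times WT. Birc2, for an inhibitor of apoptosis, and Nfkbie, for another inhibitor of NF-kappaB, rose to 1.56 and 1.41 times. Of 19 cytokine receptor genes 6 were higher and 2 lower (5 and 7 after scaling). Of 14 complement genes 9 were higher and 1 lower (8 and 1 after scaling). C3, the central component, was at 49.8, 49.5 and 32.5 TPM in WT and 122, 119 and 115 in EgfrKO, and C1ra and C1s1, for the proteases that start the classical pathway, were 3.42 and 3.47 times WT. The lower member was Clu, for the secreted chaperone clusterin, at 13331, 13463 and 13461 TPM in WT and 8650.1, 8506 and 8459 in EgfrKO, among the most abundant transcripts of these cells. Inflammasome and cell death genes had 11 higher and 2 lower of 23 (10 and 3 after scaling). Casp1, Casp12 and Casp4, inflammatory caspase genes, rose to 5.11, 3.49 and 2.80 times WT. BCL2 family genes split (4 higher and 4 lower of 17; 2 and 6 after scaling), with the killer gene Bak1 at 1.53 times and Bnip3 at 0.573 times WT. For prostaglandins, Ptgs2, the inducible cyclooxygenase gene, was at 32.2, 37.2 and 54.0 TPM in WT and 12.6, 12.4 and 11.3 in EgfrKO, and Ptges, for a prostaglandin E synthase, fell to 0.533 times WT, while the whole list had 5 higher and 5 lower of 18 (3 and 5 after scaling).

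Hypoxia and glycolysis genes were mostly called lower. Cells short of oxygen stabilise HIF factors, which induce glucose uptake, glycolysis and acid export. Of 31 hypoxia-induced genes 22 were lower and 1 higher, with a median of -0.65, and after scaling 25 and 1. Ndrg1, a strongly hypoxia-induced gene, was at 672, 745 and 837 TPM in WT and 334, 326 and 323 in EgfrKO. Car9, for a carbonic anhydrase on the cell surface, was at 190.2, 212 and 191 TPM in WT and 76.1, 74.5 and 68.8 in EgfrKO, and Pfkfb3, for the enzyme that makes the main activator of glycolysis, fell to 0.418 times WT. The groups did not overlap in 28 of the 31 genes, against 56% of all genes. Among 21 glycolysis genes 14 were lower and 1 higher (14 and 0 after scaling). Slc16a3, the lactate exporter MCT4, was at 114, 102 and 98.02 TPM in WT and 27.7, 24.7 and 25.6 in EgfrKO, 0.248 times WT. Slc2a1, the glucose transporter GLUT1, was at 355, 355 and 413 TPM in WT and 196, 189 and 172 in EgfrKO, and Hk2, for hexokinase, fell to 0.663 times. The most abundant enzymes changed by smaller amounts: Gapdh was at 7499, 8056 and 8537 TPM in WT and 6678, 6523 and 6495 in EgfrKO (log2 fold change -0.29 ± 0.065, adjusted p = 0.0043), a call lost with quantile normalization (adjusted p = 0.0915). Eno1, for enolase, fell to 0.848 times WT.

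The upstream letters of 2 genes that fell are also shown. Capitals mark ACGTG or its reverse complement, the core of the element that HIF binds (chr4:43506978-43507025 for Car9 and chr4:119108679-119108743 for Slc2a1, GRCm38.p6, plus strand).
Car9: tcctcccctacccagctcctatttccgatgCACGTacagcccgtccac
Slc2a1: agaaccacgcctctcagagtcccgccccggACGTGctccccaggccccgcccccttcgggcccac
This short motif was in 21.1% of all windows, 46.9% of the 32 windows of hypoxia-induced genes and 37.5% of the 32 of glycolysis genes. It was in 9.09% of the 11 of GTPase genes. Windows were present for 22 of 31 hypoxia-induced, 21 of 21 glycolysis and 10 of 19 GTPase genes tested.

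Genes of the pentose phosphate, serine and one-carbon pathways were mostly higher. In the pentose phosphate, serine and one-carbon list 14 of 20 genes were higher and 1 lower, and 11 and 2 after scaling. Shmt2, for the mitochondrial enzyme that moves a carbon from serine to folate, was at 45.8, 39.3 and 37.4 TPM in WT and 76.7, 70.0 and 70.9 in EgfrKO. Mthfd2, for the next mitochondrial enzyme of that route, was at 31.3, 23.3 and 25.3 TPM in WT and 49.5, 46.4 and 46.3 in EgfrKO. The groups were apart in both genes. Psph, for the last step of serine synthesis, rose to 1.71 times WT, and Aldh1l1, for an enzyme that consumes one-carbon folate, fell from 72.6, 74.6 and 76.8 to 51.9, 49.9 and 43.3 TPM. Asns, for asparagine synthetase, was at 34.9, 27.4 and 27.8 TPM in WT and 88.8, 81.6 and 80.6 in EgfrKO, the largest rise of the ATF4 list. Citric acid cycle genes were higher in 15 of 27 and lower in 0, and after scaling in 9 and 3. Me1, malic enzyme, and Cs, citrate synthase, rose to 1.55 and 1.40 times WT. Counts for nuclear genes of oxidative phosphorylation depended on the scaling, with 45 higher and 1 lower of 72 as deposited, 14 and 3 once scaled by median ratios, and 36 and 2 with quantile normalization. Atp5g1, for a subunit of ATP synthase, rose from 118, 126 and 105 to 188, 178 and 173 TPM. Cox8a, the most abundant member, was called higher as deposited (0.24) and not after median-of-ratios scaling (0.085, adjusted p = 0.538).

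**Figure D3:**
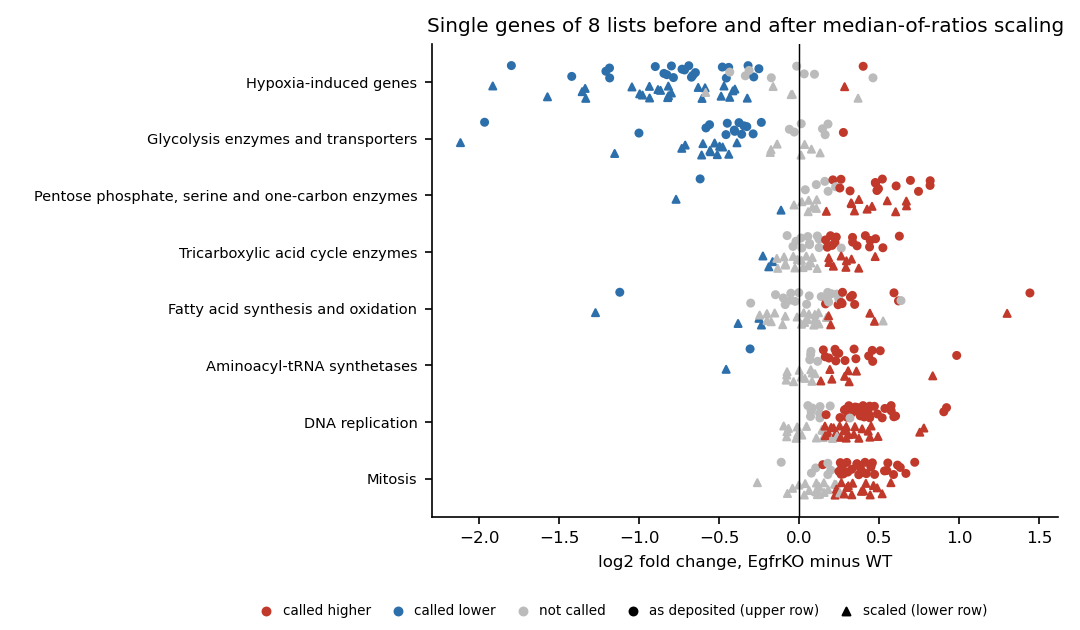
Log2 fold change of EgfrKO minus WT of each gene tested in 8 lists, with circles for TPM as deposited and triangles for values after median-of-ratios scaling; red and blue mark calls at adjusted p of 0.05 and grey no call. Hypoxia and glycolysis genes lie mostly below 0 in both rows, replication and mitosis genes above, and the citric acid cycle genes straddle 0 in the scaled row.

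Lipid genes went both ways. Cholesterol genes had 6 higher and 5 lower of 23, and 2 and 10 after scaling. Srebf2, for the factor that induces the pathway, fell to 0.818 times WT, while Fdps, for an enzyme of the pathway, rose to 1.27 times. Srebf2 was not called with WT replicate 3 left out (adjusted p = 0.0502). Fatty acid genes had 11 higher and 1 lower of 30 (5 and 4 after scaling). Plin2, which coats lipid droplets, was at 261, 271 and 290.1 TPM in WT and 132, 119 and 124 in EgfrKO, and Acadm, for a dehydrogenase of fatty acid oxidation, rose to 1.54 times WT. Detoxification enzymes were higher in 29 and lower in 10 of 59 (26 and 13 after scaling). Gsta1 rose from 29.9, 29.6 and 21.0 to 83.1, 89.0 and 81.0 TPM and Cyp2c65 to 5.77 times WT, and Mgst1, a membrane glutathione transferase gene, fell from 178, 175 and 163 to 93.6, 86.7 and 82.2 TPM; Gsta and Cyp2c genes can share reads with their paralogs. Amino acid transporter genes were higher in 8 and lower in 2 of 21 (7 and 3 after scaling), with Slc1a5, a glutamine carrier, at 1.45 times and Slc38a2 at 0.603 times WT. Iron storage transcripts fell: Fth1 and Ftl1, for the ferritin chains, were 0.755 and 0.764 times WT, and Trf, transferrin, was at 529.6, 540.0 and 528 TPM in WT and 329, 317 and 316 in EgfrKO. The iron list as a whole had 3 higher and 5 lower of 18 (1 and 9 after scaling).

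Stress genes did not move as 1 block. Of 20 heat shock genes 10 were lower and 3 higher (13 and 2 after scaling). Hspb1, a small heat shock protein gene, was at 786, 709 and 758 TPM in WT and 255, 258 and 227 in EgfrKO. Hspa1a, for inducible HSP70, fell to 0.268 times WT (Hspa1a and Hspa1b are near-identical and can share reads), whereas the constitutive Hspa8 was not called (1639, 1794 and 1727 TPM in WT, 1826, 1721 and 1706 in EgfrKO, adjusted p = 0.682). Of 19 genes of the integrated stress response 6 were higher and 7 lower (6 and 9 after scaling): Atf4 itself was at 311, 339 and 348 TPM in WT and 243, 254 and 241 in EgfrKO, Ppp1r15a and Gdf15 fell to 0.486 and 0.442 times WT, and Chac1 and Trib3 rose to 2.24 and 1.66 times. Endoplasmic reticulum genes were 5 higher and 2 lower of 23, a direction that turned to 2 and 9 with median-of-ratios scaling, and Hspa5, for the chaperone BiP, fell from 512, 509 and 539 to 403, 378 and 375 TPM. In the NRF2 list (9 higher and 4 lower of 28; 5 and 9 after scaling) both subunit genes of the glutathione-making enzyme rose, Gclc from 75.6, 79.7 and 71.9 to 149, 155 and 140.3 TPM and Gclm to 1.42 times WT, while Hmox1, heme oxygenase, fell to 0.574 times. Lysosomal genes were 10 higher and 8 lower of 32, and 3 and 12 after scaling, with Ctsl and Sqstm1 at 0.590 and 0.580 times WT and Ctso at 2.05 times.

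Cell cycle genes were called higher far more often than lower, and by moderate amounts. Replication genes were higher in 29 of 38 and lower in 0, with a median of 0.37, and 23 stayed higher after scaling (0.22). Rrm2, for the enzyme that makes DNA building blocks, was at 64.6, 63.0 and 63.2 TPM in WT and 121, 121 and 117 in EgfrKO, and Prim1, for DNA primase, at 13.1, 12.8 and 10.8 TPM in WT and 27.5, 23.8 and 21.0 in EgfrKO. Mitosis genes were higher in 29 of 35 and lower in 0, with 16 higher after scaling. Top2a, a topoisomerase gene, was at 41.0, 44.5 and 40.3 TPM in WT and 73.6, 68.8 and 66.9 in EgfrKO, and Birc5, for survivin, rose to 1.54 times WT. No replication or mitosis gene was called lower either way. Genes that set entry to the cycle showed the same direction, 12 higher and 3 lower of 24 (9 and 4 after scaling). Ccnd2, for cyclin D2, was at 19.3, 20.5 and 19.9 TPM in WT and 48.5, 45.2 and 44.6 in EgfrKO, and Cdkn1a, for the inhibitor p21, was at 36.3, 52.98 and 52.5 TPM in WT and 32.4, 27.8 and 28.4 in EgfrKO (adjusted p = 0.00419). Myc itself fell, from 87.6, 88.2 and 89.4 to 71.2, 75.8 and 69.7 TPM, and the MYC network had 10 higher and 3 lower of 23 (5 and 5 after scaling). p53 targets had 5 higher and 3 lower of 19 (3 and 5 after scaling), with Mdm2 at 0.811 and Phlda3 at 1.56 times WT. Uhrf1 and Dnmt1, which maintain DNA methylation during replication, rose to 1.41 and 1.37 times, and Uhrf2 and Kdm6b fell to 0.813 and 0.734 times; that list had 7 higher and 3 lower of 22 and 3 and 6 after scaling.

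Counts of the protein-making lists differed between scalings. Mitochondrial ribosomal protein genes were higher in 56 of 78 and lower in 0 as deposited, and 23 and 6 after median-of-ratios scaling or 31 and 2 after quantile normalization, with Mrpl54 at 81.7, 76.6 and 74.7 TPM in WT and 126, 120.1 and 123 in EgfrKO. Cytosolic ribosomal protein genes were lower in 22 and higher in 7 of 79, and 37 and 0 after scaling. Quantile normalization left 24 lower and 7 higher, close to the counts as deposited. Rps12, for example, was called higher as deposited (0.26) and not after median-of-ratios scaling (0.11, adjusted p = 0.329) or quantile normalization (adjusted p = 0.0626), and ribosomal protein genes can share reads with pseudogenes. Rps6, which is phosphorylated downstream of mTOR, fell most, from 2381, 2219 and 2368 to 1666, 1604 and 1611 TPM. Transfer RNA synthetase genes were higher in 15 and lower in 1 of 20 (8 and 1 after scaling), led by the interferon-induced Wars, at 63.1, 53.1 and 47.0 TPM in WT and 109.6, 110.4 and 103 in EgfrKO, and with Cars the lower member (0.805 times WT). Constitutive proteasome genes were higher in 25 and lower in 1 of 34, and 7 and 3 after median-of-ratios scaling but 22 and 1 after quantile normalization. Psmb4, for a core subunit, rose to 1.38 times WT.

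The TGF-beta family list was mostly lower where called, 17 lower and 3 higher of 38 (25 and 2 after scaling), with a median of -0.24. Inhba, for an activin subunit, was at 76.7, 80.1 and 95.6 TPM in WT and 23.4, 21.4 and 20.7 in EgfrKO. Grem1, for a secreted BMP inhibitor, was at 33.1, 34.6 and 46.1 TPM in WT and 6.79, 8.01 and 4.68 in EgfrKO. Smad6, for an inhibitory SMAD, rose to 1.62 times WT. Id1 was called higher as deposited (0.21) and not after median-of-ratios scaling (0.064, adjusted p = 0.44). The list of YAP, TAZ and TEAD genes with their targets had 3 higher and 8 lower of 23 (2 and 12 after scaling). Cyr61, a matricellular target gene, was at 73.6, 68.4 and 73.3 TPM in WT and 27.1, 27.3 and 27.7 in EgfrKO. Ctgf, the most abundant target, was not called (201, 182 and 171 TPM in WT and 203, 198 and 188 in EgfrKO). F3, for tissue factor, rose to 1.68 times WT. WNT genes went both ways, 8 higher and 11 lower of 32 (7 and 16 after scaling). Wnt4 rose from 2.53, 3.78 and 2.45 to 16.01, 14.4 and 13.6 TPM and Wnt10a to 3.40 times WT, and Dkk2 and Lgr6 fell to 0.206 and 0.343 times. Notch genes had 2 higher and 4 lower of 19 (2 and 9 after scaling), with the ligand gene Jag1 at 0.705 times WT.

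Several families of matrix and adhesion genes had more lower than higher calls. Fn1, fibronectin, was at 934, 986 and 1174 TPM in WT and 415, 408 and 394 in EgfrKO, and Thbs1 and Tnc, for other matrix proteins, fell to 0.329 and 0.461 times WT. Laminin and basement membrane genes were 8 lower and 4 higher of 17 (10 and 4 after scaling), with Nid1 at 49.9, 50.7 and 60.4 TPM in WT and 21.6, 21.6 and 20.1 in EgfrKO. Integrin genes were 7 lower and 4 higher of 19 (11 and 4 after scaling), with Itga5, the fibronectin receptor chain, at 86.3, 90.5 and 95.4 TPM in WT and 57.8, 56.7 and 52.0 in EgfrKO and Itgb1, the shared beta chain, at 0.754 times WT. Matrix proteases and inhibitors had 14 lower and 8 higher of 34 (15 and 5 after scaling). Mmp3 and Mmp10, for stromelysins, fell to 0.191 and 0.231 times WT, and Spint2, for an inhibitor of membrane proteases, rose to 1.26 times. Semaphorin and plexin genes had 9 lower and 6 higher of 26 (13 and 3 after scaling), with Sema7a at 0.470 and Plxnd1 at 1.57 times. In the list of mesenchymal genes 6 were higher and 7 lower of 21 (5 and 11 after scaling); Vim, vimentin, was not called as deposited (3433, 3423 and 3925 TPM in WT, 3518, 3379 and 3341 in EgfrKO) and was called lower after median-of-ratios scaling (adjusted p = 0.0357).

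Epithelial genes did not share 1 direction. Of 12 keratin genes 6 were higher and 0 lower, the same counts as after scaling: Krt7 was at 58.0, 63.8 and 63.0 TPM in WT and 166, 153 and 157 in EgfrKO, Krt19 at 998, 1081 and 1096 TPM in WT and 1894, 1835 and 1789 in EgfrKO, and Krt18 was not called. Cdh1, for E-cadherin, was at 154, 175 and 169 TPM in WT and 279, 271 and 253 in EgfrKO, while Epcam, another epithelial adhesion gene, was at 11.4, 14.6 and 14.6 TPM in WT and 1.35, 1.36 and 1.20 in EgfrKO and Cdh17, for an intestinal cadherin, fell to 0.670 times WT. Junction genes had 8 higher and 3 lower of 20 tight junction genes (4 and 4 after scaling) and 5 and 5 of 15 desmosome and adherens junction genes (3 and 7). Transcription factors of pancreas and gut were 10 higher and 7 lower of 24 (9 and 8 after scaling). Ehf and Esrp2 rose to 1.78 and 1.76 times WT (Esrp2 encodes an epithelial splicing factor), and Sox9, Klf4 and Sox4 fell to 0.605, 0.666 and 0.745 times. Mucosal genes had 8 higher and 5 lower of 25 (7 and 8 after scaling): Tff1, a gastric trefoil gene, was 4.25 times WT, and Reg3b and Reg3g, for related antimicrobial lectins that can share reads, were 0.146 and 0.212 times. S100 and annexin genes had 10 higher and 10 lower of 26 (7 and 11 after scaling), and clock genes had 6 lower and 0 higher of 15 (10 and 0 after scaling), with Nfil3 and Nr1d1 at 0.590 and 0.619 times WT.

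**Figure D4:**
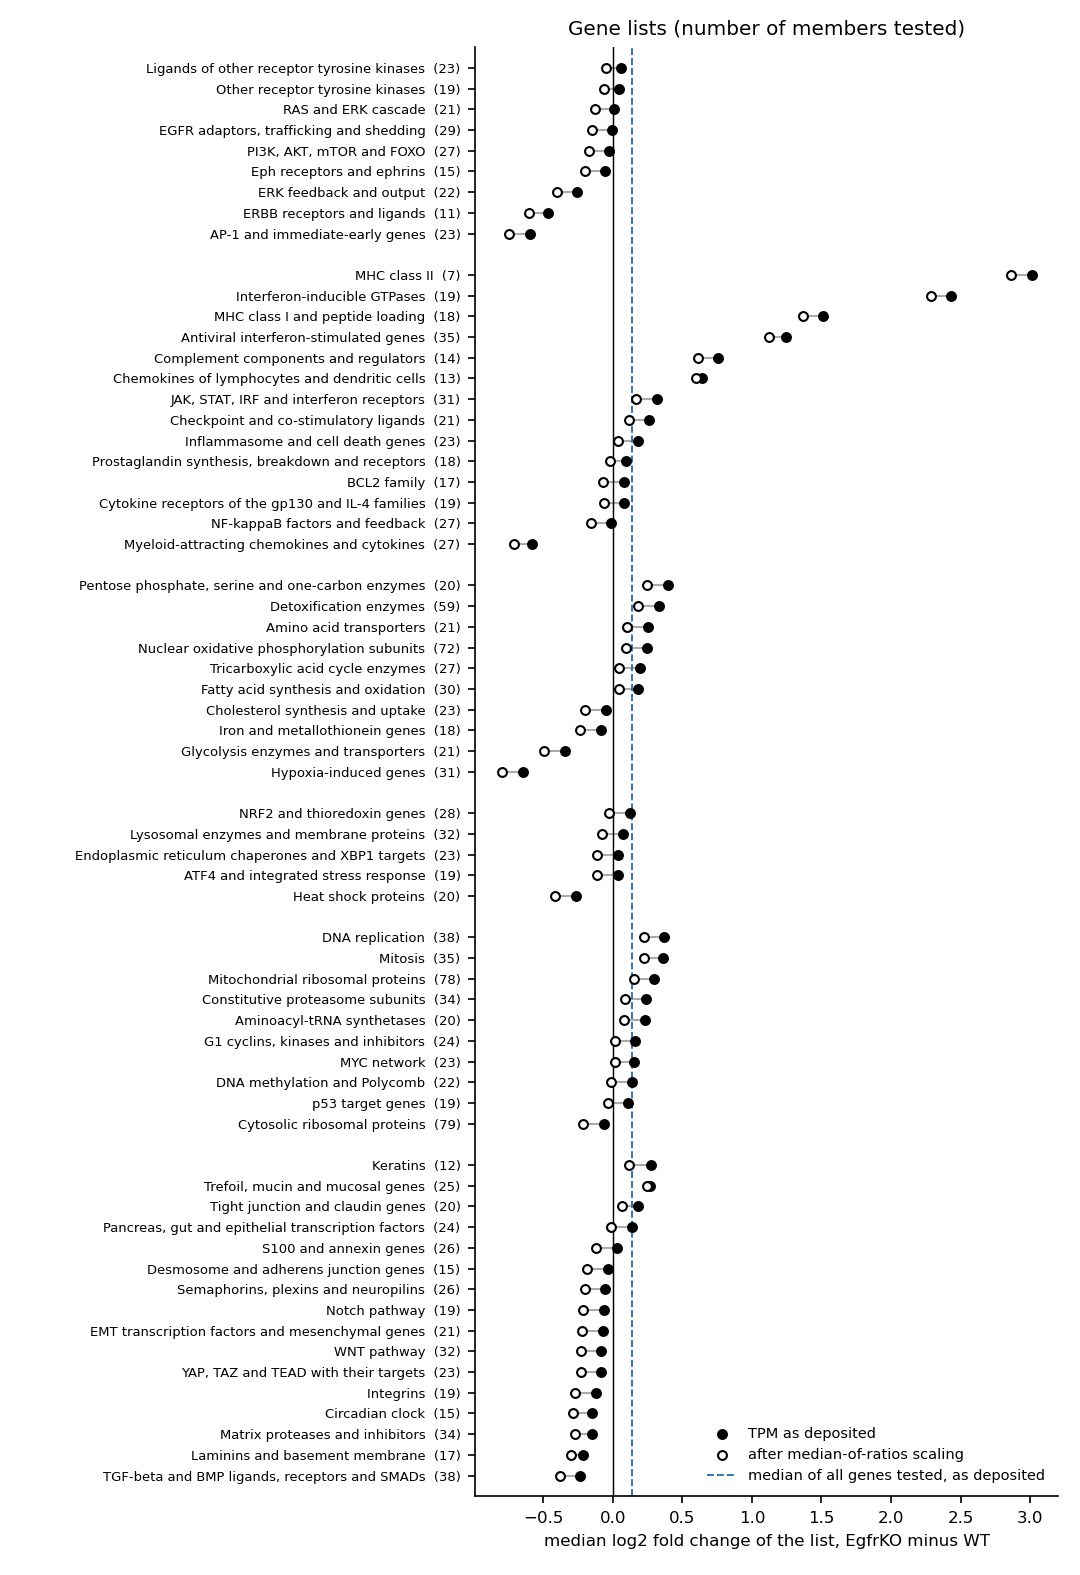
Median log2 fold change of EgfrKO minus WT of the 64 gene lists, with the number of members tested in brackets, as deposited (filled) and after median-of-ratios scaling (open); the dashed line is the median of all genes as deposited. Medians of interferon, hypoxia, AP-1 and myeloid cytokine lists lie far from 0 both ways, and many others lie on opposite sides of 0.

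Spp1, for osteopontin, was at 13117, 12710.4 and 13616 TPM in WT and 8306, 7985 and 7953 in EgfrKO, and with Clu it had the widest losses in TPM of all genes apart from Mir6236, which was not called. Tmsb4x, for thymosin beta 4, fell to 0.732 times WT. Among genes in none of the lists, Mgp, matrix Gla protein, was at 204, 166 and 181 TPM in WT and 7.54, 5.95 and 8.63 in EgfrKO, 0.0401 times WT, Ank, for a pyrophosphate and ATP release protein, was at 195, 167 and 193 TPM in WT and 36.2, 35.3 and 35.1 in EgfrKO, and Piezo2, for a stretch-activated channel, was at 35.6, 29.97 and 37.8 TPM in WT and 6.45, 6.13 and 5.63 in EgfrKO. Cxxc5, Eid2, Lmcd1 and Arc fell to 0.109, 0.0626, 0.162 and 0.139 times WT. In the other direction Car2, a cytosolic carbonic anhydrase gene, was at 22.1, 29.7 and 26.1 TPM in WT and 240.3, 220.0 and 229 in EgfrKO, and Cym, for the stomach protease chymosin, was at 25.8, 34.5 and 20.9 TPM in WT and 239, 232 and 226 in EgfrKO. Ubd, for a ubiquitin-like modifier induced by interferon, was 13.9 times WT and Adgrg7, for an adhesion receptor of the gut, 17.3 times. Lgals2, for galectin 2, was at 929, 996 and 789.5 TPM in WT and 1956, 2003 and 1928 in EgfrKO.

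Transcripts of other cell types were present, and their sums were higher in all EgfrKO than in all WT libraries for some lists and overlapped for others. Summed over 16 macrophage markers, TPM was 938 to 1758 in WT and 1952 to 2013 in EgfrKO, where only Retnla, a gene of alternatively activated macrophages, was called (12.5, 36.7 and 35.6 TPM in WT and 392.4, 435 and 431 in EgfrKO). Without Retnla the sums were 926, 1722 and 907 in WT and 1621, 1578 and 1520 in EgfrKO, an alternative chosen after seeing the data, so that WT replicate 2 lay above every EgfrKO library. The other 15, which include the core macrophage genes, did not pass the test. Log2 fold changes of the 16 markers were nevertheless all above 0, from 0.088 to 3.99, with a median of 0.67 (0.53 after scaling). Groups did not overlap in 9 of the 16, against 56% of all genes. Lyz2, the most abundant marker, was at 321, 688 and 305 TPM in WT and 447, 439.7 and 413 in EgfrKO, with WT replicate 2 the highest library. The general leukocyte sum was 119 to 165 in WT and 186 to 196 in EgfrKO, and 3 of 7 markers were called higher and 1 lower (1 and 1 after scaling). Dendritic cell markers summed to 6.46 to 10.7 TPM in WT and 19.8 to 21.6 in EgfrKO (3 of 5 tested called higher, with Flt3, Xcr1, Clec9a and Siglech never above 1 TPM). T and NK cell markers, without Trac, Trbc1 and Trbc2, which have no entry in the deposited values, summed to 2.96 to 7.32 and 14.6 to 18.9. Of these, 6 of 10 tested were called higher, 4 with quantile normalization, and Cd3g, Ncr1 and Klrb1c were never above 1. Mast cell markers summed to 11.3 to 22.96 and 33.3 to 37.5 (4 of 5 called higher, 3 with quantile normalization, with Kit never above 1), and endothelial markers to 4.99 to 6.21 and 11.9 to 16.2 (4 of 4, with Kdr, Tek, Emcn and Vwf never above 1). Several tested markers of these 3 lists, such as Gzmb, Nkg7, Il2rb, Cpa3, Cma1 and Cldn5, were below 1 TPM in every WT library. They passed the filter only through knockout libraries, so the counts called higher in these lists were partly set by the filter. Fibroblast markers summed to 79.0 to 175 in WT, lowest in replicate 3, and 167 to 178 in EgfrKO, and 3 of 12 were called higher and 1 lower (2 and 1 after scaling). Neutrophil markers summed to 13.1 to 25.4 and 15.2 to 19.5 (1 of 5 called higher and 2 lower), with Ly6g, Mpo, Camp and Ngp never above 1. B and plasma cell markers reached at most 3.92 TPM in sum, and sums of pericyte, adipocyte and muscle, keratinocyte and red blood cell markers were 42.4 to 43.7, 8.12 to 10.6, 109.9 to 120.1 and 55.2 to 63.3 in EgfrKO and 37.2 to 59.0, 4.36 to 5.62, 109 to 121 and 46.3 to 121 in WT. The tumour epithelial markers summed to 5858 to 6316 and 7872 to 8439 TPM, more than any other list in every library, with 5 of 9 called higher and 3 lower. Of these, Krt18 was not called, and Epcam, given above, was among the lower calls. Chil3, a chitinase-like gene that macrophages express, was at 5.59, 9.43 and 18.7 TPM in WT and 82.5, 75.8 and 74.8 in EgfrKO, and its paralog Chil4, with which it can share reads, was at 204, 309 and 608 TPM in WT and 1976, 1852 and 1817 in EgfrKO. WT replicate 3 was the highest WT library in both. The part of these other cells in the immune gene changes was not tested, and in bulk RNA fewer cells of a type and less RNA per cell cannot be told apart.

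Against the other 2 knockout labels as well, few genes were called. Genes called higher in EgfrKO than in each of the WT, Klf5KO-labelled and Smad4KO groups numbered 228 (1.67%), and genes called lower than in each numbered 233 (1.71%), or 251 (1.84%) and 384 (2.81%) after median-of-ratios scaling. The higher count was 144 without EgfrKO replicate 1 and 146 without EgfrKO replicate 2, and the lower count 155 without EgfrKO replicate 3. These counts are of genes past 3 tests that share the EgfrKO libraries. None of the MHC class I, class II and GTPase genes was among them. H2-K1, for example, was at 3338 ± 61.1 TPM (SD, n = 3) in EgfrKO, 3921 ± 166 in Klf5KO-labelled and 3273 ± 173 in Smad4KO libraries. Lower than in each group were 0 of 31 hypoxia-induced genes and 1 of 21 glycolysis genes (0 and 0 after scaling). The same held for 1 of 22 ERK feedback and output genes and 2 of 23 AP-1 and immediate-early genes (1 and 0 after scaling). Areg was at 14.8, 30.3 and 18.3 TPM in Klf5KO-labelled and 25.5, 29.9 and 25.1 in Smad4KO libraries, overlapping EgfrKO. Hbegf was lower in Smad4KO than in EgfrKO libraries, at 113, 116 and 111 TPM. Egfr was lower in EgfrKO than in each of the 3 groups, as was Lrig1. Egfr was also below every WT library in the other knockout labels. It was at 6.99, 8.35 and 5.45 TPM in Klf5KO-labelled and 7.48, 10.03 and 6.35 in Smad4KO libraries. In the pentose phosphate, serine and one-carbon list 4 of 20 genes were higher than in each of the 3 groups (6 after scaling). Among them was Shmt2, at 72.5 ± 3.66 TPM in EgfrKO, 54.1 ± 2.50 in Klf5KO-labelled and 46.4 ± 3.08 in Smad4KO libraries.

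Some of the top ranked genes are known from leukocytes, although none of 16 macrophage markers and 1 of 5 dendritic cell markers were called higher than in each group. Mgl2, for a sugar-binding receptor of macrophages and dendritic cells, was at 56.7 ± 5.29 TPM in EgfrKO, 5.05 ± 1.20 in WT, 17.4 ± 8.49 in Klf5KO-labelled and 21.9 ± 14.1 in Smad4KO libraries. Cd209a, Cd209d, Cd209e and Clec10a, further receptors of this kind, and Il5ra, for an interleukin 5 receptor chain, were also higher than in each group, and Cd209 genes can share reads. Clec10a was at the edge of the threshold, with adjusted p of 0.026 against WT, 0.0494 after median-of-ratios scaling and 0.0601 to 0.0853 without WT replicate 1, WT replicate 3, EgfrKO replicate 1 or EgfrKO replicate 2. Of genes not typical of leukocytes, Cym was at 232 ± 6.61 TPM against 27.1 ± 6.89 in WT, 66.6 ± 20.4 in Klf5KO-labelled and 31.3 ± 5.49 in Smad4KO libraries. Suox, for sulfite oxidase, was at 40.8 ± 0.257 against 13.96 ± 0.922, 17.0 ± 1.37 and 19.7 ± 1.36 in the same order. On the lower side, Mgp was at 7.38 ± 1.35 TPM against 184 ± 19.2, 34.1 ± 17.6 and 18.5 ± 6.25, and Prom1, for the membrane protein prominin 1 (CD133), at 11.04 ± 1.08 against 40.4 ± 3.20, 20.8 ± 2.86 and 87.4 ± 8.97. Pde3b, for a cyclic nucleotide phosphodiesterase, Slco3a1, Rgs3, Clic6 and Repin1 were lower than in each group too. Mgst1 was at 87.5 ± 5.74 TPM in EgfrKO against 172 ± 7.85 in WT, 187 ± 11.5 in Klf5KO-labelled and 366 ± 20.3 in Smad4KO libraries.

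**Figure D5:**
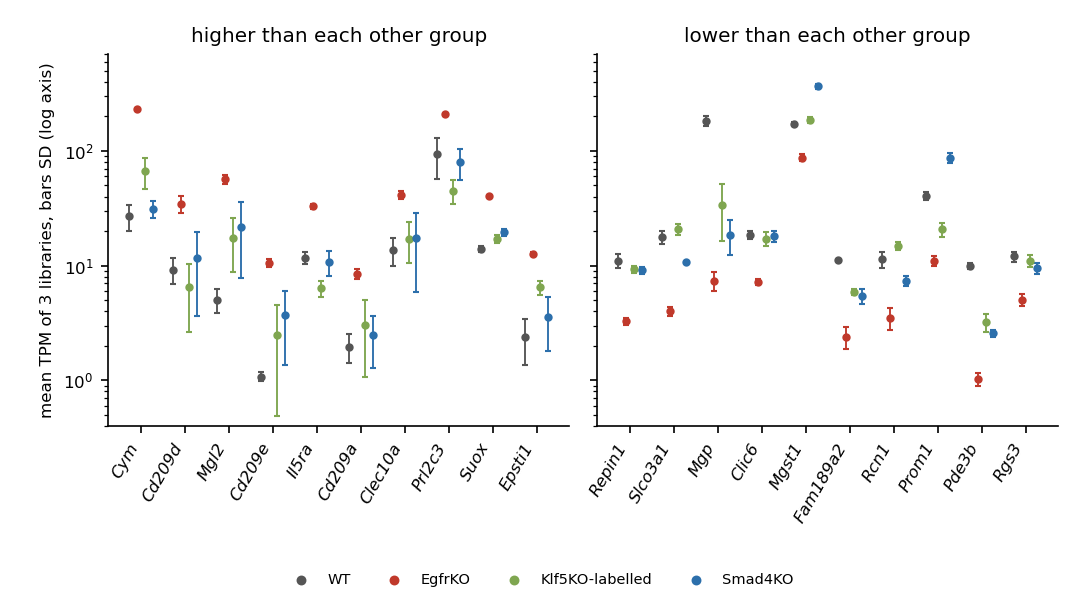
Mean TPM of 3 libraries with SD bars, on a log axis, for 20 genes called higher (left) or lower (right) in EgfrKO than in each of the other 3 groups. The EgfrKO means (red) are the highest of 4 on the left, as for Cym and Mgl2, and the lowest on the right, as for Mgp and Pde3b.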

How the data were processed

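RNA from mouse tumour cells was sequenced in 12 libraries, 3 of each of 4 genotype labels. The deposited table holds TPM per gene, made with Salmon against mm10 per the submitters' processing notes; Salmon's version and the annotation are not stated there. TPM keeps no sequencing depth, so counting errors cannot be given. No TPM column was left out.

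Genes with at least 1 TPM in at least 3 libraries were kept. Values were tested as log2(TPM + 1) in limma 3.58.1 (R 4.3.3) with 4 group means, a trend in the spread and Benjamini-Hochberg adjustment over all 13662 genes, two-sided, at 0.05. The script was checked on simulated data. Fold changes of genes with low TPM are understated by the added 1. Replicate numbers come from the labels.

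The gene lists, cell type markers and the comparison were chosen with earlier results of these data known. Genes named were, per list, up to 3 per direction with the largest change among called genes with a mean of at least 5 TPM and the 2 most abundant members; the 12 per direction with the widest TPM difference; the 12 per direction with the largest change outside the lists; the 10 per direction called against each other group; and the 2 most abundant markers of each cell type. Unnamed gene models were left out of the ranked parts. The 4 scalings, another pseudocount, other filters, other fits and leaving out each library were the alternatives.

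Of the genes tested, 13327 (97.5%) matched RefSeq symbols, and promoters and positions are from RefSeq's GRCm38.p6 table, the assembly behind mm10. Some genes are not reported here.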

Additional observations from a re-analysis of the deposited data

How the results depend on the processing

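Median-of-ratios scaling changed the counts most among the scalings: 2462 genes were higher and 3029 lower in EgfrKO than in WT, against 2510 and 2766 with quantile normalization, and 4277 and 1643 as deposited. An alternative chosen after seeing the data, scaling factors from the tested genes only, gave 2485 and 3023. Testing for a change of more than 1.5-fold left 365 and 215. For genes apart from all 3 other groups, the lower count of 233 became 384 with median-of-ratios scaling and 375 with factors from the tested genes, and the fold threshold left 9 higher and 5 lower. Leaving out 1 library gave 3142 to 4300 higher and 1319 to 1541 lower genes against WT, and 144 to 270 higher and 155 to 221 lower genes against all 3 groups. Of 472 named genes, 412 kept their call or lack of one with median-of-ratios scaling, 438 with quantile normalization and 193 with the fold threshold. Quantile normalization reversed Fjx1 (-0.018, adjusted p 0.807) and Tmsb10 (0.27, adjusted p 0.0388). The cause was not tested. The labels do not say whether libraries with the same number belong together. Deviations from the group mean correlated at -0.010, 0.038 and 0.0039 for same-numbered WT and EgfrKO libraries. For different numbers they correlated at -0.031 to 0.026, and with 3 libraries a group these values do not settle a pairing. With the replicate number as a block 4211 genes were higher and 1586 lower. With 3 libraries a group and no depth in TPM, small differences of low genes were not resolved.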
